A study of Mus musculus with 18 samples.

Results

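C/EBPβ binding was compared between uninduced cells (0 hours post-induction, hpi) and cells induced for 3 h, with 1 ChIP-seq library at each time. The members are the 200-bp bins of mouse chromosomes 1 to 19 (build mm9) that held at least 7 reads in either library after both were brought to 4169425 reads, and they were 7538 of 12361722 bins (0.0610%). Bins and not called peaks are the unit, and a bin's value is its number of reads at this equal depth.

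The series is a set of ChIP-seq libraries from C10 cells, a single line derived from HAFTL pre-B cells that carries C/EBPα fused to the estrogen receptor hormone-binding domain and tagged with GFP. β-estradiol moves the fusion protein into the nucleus, and the cells then take on a macrophage-like state in medium with the cytokines IL-3 and CSF-1. The 3 hpi cells had received β-estradiol and the control cells the ethanol solvent, and the fusion construct is carried by both. The sources used here do not make clear whether the 0 hpi cells were also grown with IL-3 and CSF-1, so induction, time and cytokines cannot be told apart. The 18 libraries used here comprise 8 of C/EBPα, 5 of C/EBPβ and 5 of PU.1. The antibody to C/EBPβ was sc-150 in both C/EBPβ libraries compared. Read counts average over all cells of a culture, so more cells with a bound site and more binding per cell cannot be told apart.

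C/EBPβ is a basic leucine zipper protein that binds DNA as a dimer, either with itself, with other C/EBP proteins or with members of the ATF family. It is known in the myeloid lineage as a regulator of inflammatory genes, of cytokine output and of macrophage maturation. The C/EBP consensus is written here as TTGCNNAA, where N is any base. Its perfectly symmetric form is the palindrome TTGCGCAA.

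Before thinning, the C/EBPβ libraries held 4169425 reads at 0 hpi and 5685450 at 3 hpi on chromosomes 1 to 19, the shallowest depths of the factors at those times. All intervals below are exact 95% intervals (Poisson for counts, Clopper-Pearson for shares and conditional binomial for ratios). They cover counting error only, since no time point has a second library, and no p-value is given. The intervals of shares take bins as independent, although neighbouring bins can belong to the same site, so they can be too narrow.

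The following bins show the contrast that the results turn on. The first set was chosen to show bins that were low at 0 hpi and high at 3 hpi. Each is the plus strand of mm9 from 5′ to 3′, and capitals mark matches on either strand to TTGCNNAA or to the hybrid letters TGATGCAA (a C/EBP-ATF composite) and TGACGCAA (a C/EBP-CRE hybrid).
Myb, chr10:20866201-20866400: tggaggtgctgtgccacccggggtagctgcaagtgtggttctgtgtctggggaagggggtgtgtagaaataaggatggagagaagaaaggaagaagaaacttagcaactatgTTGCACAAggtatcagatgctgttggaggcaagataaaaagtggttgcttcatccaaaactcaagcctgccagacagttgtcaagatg
Lyz1, chr10:116739001-116739200: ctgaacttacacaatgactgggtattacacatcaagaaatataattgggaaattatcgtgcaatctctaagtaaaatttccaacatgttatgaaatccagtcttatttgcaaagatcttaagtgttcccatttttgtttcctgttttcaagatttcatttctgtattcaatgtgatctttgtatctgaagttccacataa
Nt5c2, chr19:46976001-46976200: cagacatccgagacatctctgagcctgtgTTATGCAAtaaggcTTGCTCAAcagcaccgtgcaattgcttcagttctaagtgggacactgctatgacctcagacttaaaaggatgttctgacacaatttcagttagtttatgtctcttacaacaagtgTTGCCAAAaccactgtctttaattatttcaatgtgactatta
Il6, chr5:30274801-30275000: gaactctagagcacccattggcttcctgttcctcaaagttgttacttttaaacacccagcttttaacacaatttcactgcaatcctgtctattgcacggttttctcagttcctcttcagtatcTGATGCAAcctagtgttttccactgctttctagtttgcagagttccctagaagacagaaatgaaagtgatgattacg
Tlr2, chr3:83689201-83689400: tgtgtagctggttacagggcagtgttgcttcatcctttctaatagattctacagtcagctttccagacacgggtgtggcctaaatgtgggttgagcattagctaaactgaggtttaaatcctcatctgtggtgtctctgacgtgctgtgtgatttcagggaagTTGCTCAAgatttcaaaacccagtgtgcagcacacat
Cebpb, chr2:167579601-167579800: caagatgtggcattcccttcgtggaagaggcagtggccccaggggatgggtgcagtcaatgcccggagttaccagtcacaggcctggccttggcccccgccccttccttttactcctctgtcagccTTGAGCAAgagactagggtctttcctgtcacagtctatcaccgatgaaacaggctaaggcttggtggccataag
Myb, Tlr2 and Cebpb carried 1 consensus match each, Nt5c2 carried 3, Il6 carried only the C/EBP-ATF composite, and the Lyz1 bin matched none of these letters. The next set was chosen to show bins already occupied before induction, of which the first and second hold the palindrome.
Cdkl4, chr17:80960201-80960400: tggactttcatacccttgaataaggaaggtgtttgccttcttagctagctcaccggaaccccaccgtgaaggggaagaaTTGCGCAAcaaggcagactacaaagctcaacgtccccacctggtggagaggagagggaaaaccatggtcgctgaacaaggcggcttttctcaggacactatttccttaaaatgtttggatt
Ctr9, chr7:118167801-118168000: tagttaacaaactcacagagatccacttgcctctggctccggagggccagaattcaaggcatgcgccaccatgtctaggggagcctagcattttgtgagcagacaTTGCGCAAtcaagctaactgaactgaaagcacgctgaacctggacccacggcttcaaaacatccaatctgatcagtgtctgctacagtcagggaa
Abhd11, chr5:135484801-135485000: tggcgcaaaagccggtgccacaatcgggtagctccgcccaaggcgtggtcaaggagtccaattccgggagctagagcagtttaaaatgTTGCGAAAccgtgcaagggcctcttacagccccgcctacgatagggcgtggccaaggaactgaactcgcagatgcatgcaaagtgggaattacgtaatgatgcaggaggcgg
The last bin, upstream of *Mnt*, lost reads by 3 hpi and held none of these letters.
Mnt, chr11:74644001-74644200: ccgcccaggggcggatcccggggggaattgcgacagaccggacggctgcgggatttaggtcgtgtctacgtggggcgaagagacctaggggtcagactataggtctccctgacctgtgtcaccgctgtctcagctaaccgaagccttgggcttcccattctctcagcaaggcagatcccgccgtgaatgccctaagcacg

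C/EBPβ gained reads at most bins. Of the 7538 bins, 6502 (86.3%) had more reads at 3 than at 0 hpi, 948 (12.6%) had fewer and 88 were equal. By the reads as counted, with 0 reads taken as 0, 3991 bins (52.9%) were placed in the class 4-fold higher at 3 hpi and 227 (3.01%) in the class 4-fold higher at 0 hpi. For 879 of the former and 66 of the latter the other library had 0 reads and the bound over a floor of 3 reads was under 4-fold. With the floor in place of 0, 3112 and 161 bins were 4-fold higher. The median log2 ratio of 3 over 0 hpi, with 1 read added to each count, was 1.70 (quartiles 0.78 and 2.58). These shares describe the bins that the read minimum selected, and since that minimum used the same 2 libraries, nothing further is read from them.

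The read minimum was reached by 1607 bins at 0 hpi and by 6832 at 3 hpi, with 901 in both. Thus 56.1% (53.6% to 58.5%) of the bins at the minimum at 0 hpi, called occupied here, were also at it at 3 hpi. The remaining 706 were at the minimum at 0 hpi alone. Of the 1607, 1062 held 7 to 9 reads at 0 hpi, and 167 lay in the first 100 kb of chromosome 11. Counts this near the minimum can cross it by counting error, so no loss of binding is read from this share. At 3 hpi, 5931 bins (86.8%) had been below the minimum before induction, and 1230 of the bins compared had no read at all at 0 hpi.

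The 1516025 reads of the 3 hpi library that thinning left out played no part in choosing bins. Scaled to the same depth they averaged 10.5 per bin over the 3991 bins, against 12.6 for the reads that chose them and 1.23 at 0 hpi. For the 227 bins higher at 0 hpi the left-out reads averaged 2.06, against 0.943 for the reads used and 7.89 at 0 hpi. Only the 3 hpi side is held out here. The 0 hpi counts are those that placed the bins in their classes, so the direction is largely fixed by the rule and nothing is read from it. The left-out reads show only that the 3 hpi level was lower in gained bins, and higher in the bins higher at 0 hpi, than the reads used gave.

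**Figure D1:**
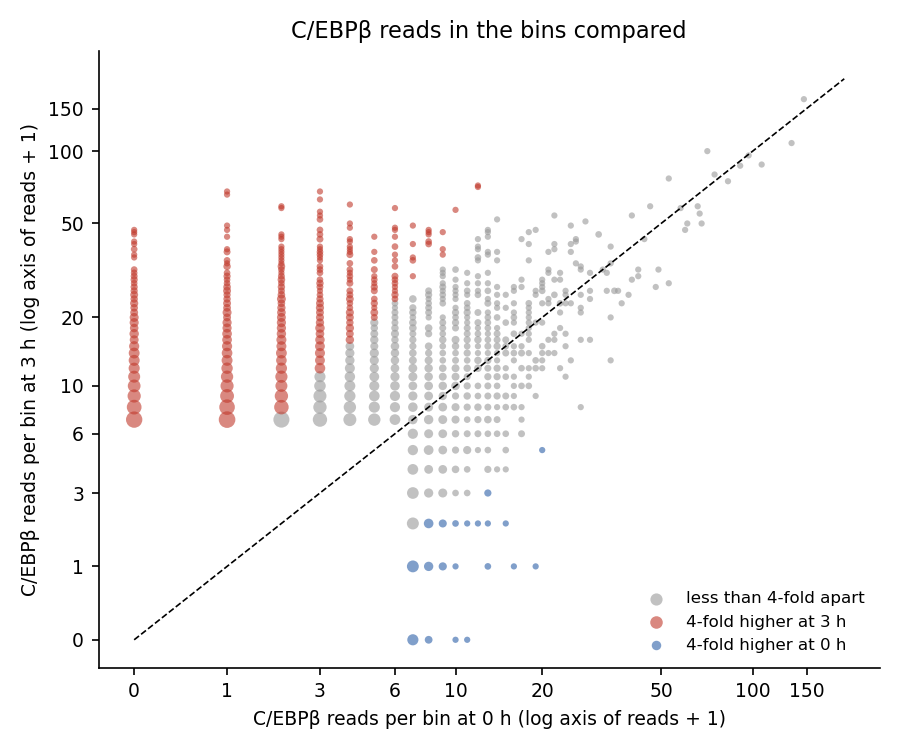
C/EBPβ reads per 200-bp bin at 0 hpi (horizontal) and 3 hpi (vertical) at equal depth, both on log axes of reads + 1. Each point is 1 pair of counts and grows with the number of bins that share it, the dashed line marks equality, and red points (3991 bins) lie 4-fold or more above and blue points (227 bins) 4-fold or more below by the reads as counted, 0 reads included.

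The same rule was applied to the other factors at the same times. For C/EBPα, 18386 bins were compared, of which 14347 (78.0%) were 4-fold higher at 3 hpi and 126 (0.685%) at 0 hpi. For PU.1, 47051 bins were compared, of which 3993 (8.49%) were 4-fold higher at 3 hpi and 1088 (2.31%) at 0 hpi. The share of bins at the minimum at 0 hpi that stayed there at 3 hpi was 72.6% (70.3% to 74.8%) for C/EBPα and 77.1% (76.6% to 77.5%) for PU.1. The median log2 ratio was 2.46 for C/EBPα and 0.26 for PU.1. All of these values come from the libraries that selected the bins, and the libraries differed in how many bins reached the minimum at 0 hpi (1576 for C/EBPα and 31959 for PU.1), so they are set side by side without a comparison.

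At the edge of the rule, 1915 bins whose higher count was exactly 7 averaged 3.06 reads at 0 hpi and 6.05 at 3 hpi, and 24.8% of them held the consensus. The 3837 bins just outside, with a higher count of 6, averaged 3.08 and 4.65 reads, and 20.2% held it.

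Bins that gained C/EBPβ and bins that had it at both times differed in which form of the C/EBP letters they held. The consensus was found in 37.2% (35.7% to 38.8%) of the bins 4-fold higher at 3 hpi and in 37.3% (34.1% to 40.5%) of the bins at the minimum at both times. Among all 11968110 bins of the genome without unknown bases, 9.28% held it. The palindrome, which is itself a TTGCNNAA, was found in 1.43% (1.08% to 1.85%) of the former, in 8.66% (6.90% to 10.7%) of the latter and in 0.0162% of all bins. The palindrome was thus several times more frequent in bins occupied at both times. Of the 901 bins, 114 lie in the first 100 kb of chromosome 11, where the averages of all 18 libraries lay between 7.77 and 12.7 reads, and without them 42.2% (38.7% to 45.7%) of 787 bins held the consensus and 9.91% (7.91% to 12.2%) the palindrome, against 37.3% and 1.43% of gained bins. The near equal share with the stretch included also does not extend to all bins occupied at 0 hpi, of which 27.5% (25.3% to 29.8%) held it, nor to the 706 at the minimum at 0 hpi alone, of which 15% (12.5% to 17.9%) did. Gained bins and bins at the minimum at both times overlap in 19 bins.

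The contrast was also present among bins with 20 or more reads at 3 hpi. Their 3 hpi means were not the same, at 28.1 for gained bins and 32.6 for bins at the minimum at both times. With 20 or more reads at 3 hpi, 249 of 501 gained bins (49.7%, 45.2% to 54.2%) and 121 of 234 bins at the minimum at both times (51.7%, 45.1% to 58.3%) held the consensus. The palindrome was in 10 of the former (2.00%, 0.961% to 3.64%) and 31 of the latter (13.2%, 9.18% to 18.3%). Where 0 hpi reads were 20 or more and 3 hpi reads at the minimum, it was in 23 of 99 bins (23.2%, 15.3% to 32.8%). All forms of TTGCNNAA that contain a CG dinucleotide were together found in 5.06% (4.40% to 5.79%) of gained bins, 15.3% (13.0% to 17.8%) of bins at the minimum at both times and 0.242% of all bins. The median number of CG dinucleotides per bin was 2 in gained bins and 3 in bins at the minimum at both times. The part of base composition and of promoter position in the contrast was not tested.

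Some forms without a CG showed the opposite order. TTGCAAAA was found in 5.29% (4.61% to 6.03%) of gained bins against 1.89% (1.10% to 3.00%) of those at the minimum at both times and 1.09% of all bins, and TTGCTTAA in 3.36% (2.82% to 3.96%) against 1.44% (0.770% to 2.45%) and 0.782%. TTGCACAA, the most frequent form in both classes, was found in 7.37% (6.58% to 8.22%) and 9.21% (7.40% to 11.3%), against 0.613% of all bins. With bins taken as independent, the intervals of the last form overlapped between classes and those of the first pair did not.

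The hybrid letters were found in both classes above the share of all bins. The C/EBP-ATF composite TGATGCAA was in 4.03% (3.44% to 4.69%) of gained bins and 5.77% (4.34% to 7.5%) of bins at the minimum at both times, against 0.617% of all bins, and TGACGCAA in 0.977% and 1.44% against 0.0512%. With any of these letters counted, 41.0% and 43.7% of the bins held a match. The cAMP response element TGACGTCA was in 9 gained bins (0.226%) and 2 bins of the other class (0.222%), against 0.111% of all bins. Other letters sought on both strands were those of PU.1 (GAGGAAGT), in 4.36% and 4.99% against 1.20% of all bins, AP-1 (TGANTCA), in 8.92% and 7.55% against 5.96%, RUNX (TGTGGTT), in 9.02% and 7.99% against 4.73%, EBF1 (TCCCNNGGG), in 6.06% and 8.99% against 1.87%, the E-box (CAGGTG), in 11.5% and 14.5% against 12.0%, the promoter ETS letters (CCGGAAGT), in 0.351% and 0.555% against 0.124%, and the CCAAT box (CCAAT), in 23.9% and 22.1% against 29.1%. Apart from the palindrome and the consensus, no match to one of these sets of letters is a match to another, and a match describes letters only.

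**Figure D2:**
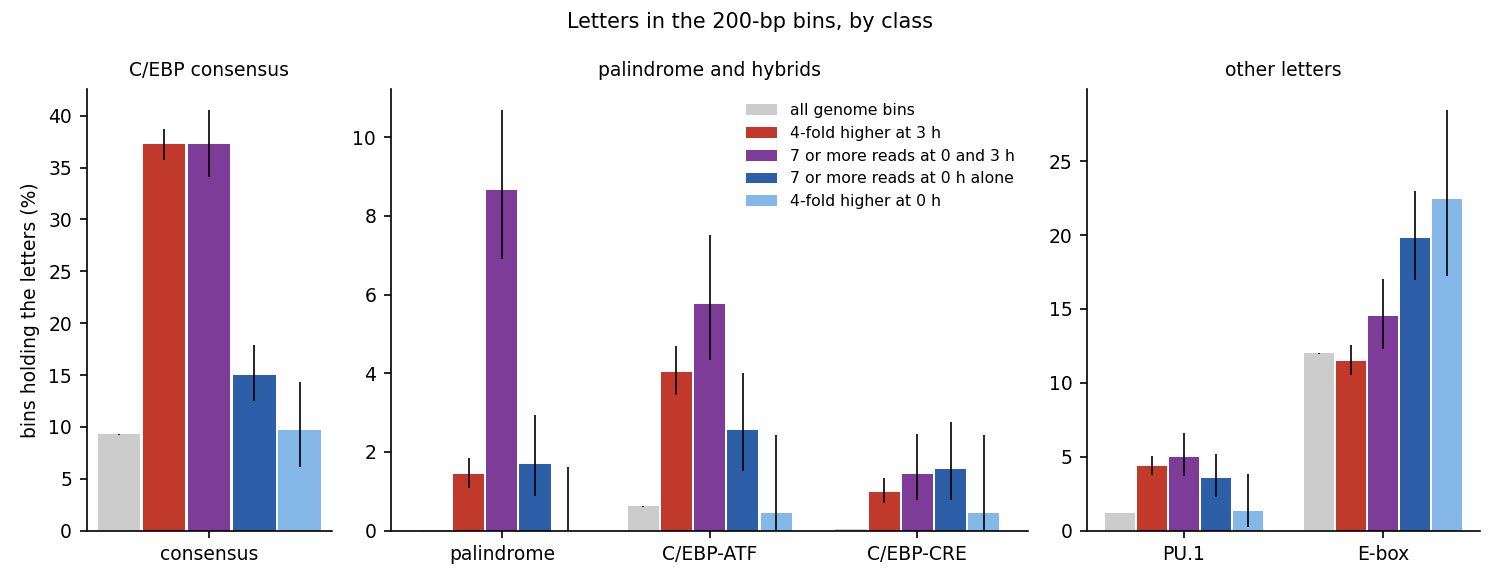
Share of 200-bp bins (percent) that hold the C/EBP consensus, its palindrome, the C/EBP-ATF and C/EBP-CRE hybrids, the PU.1 letters and an E-box (CAGGTG), for all genome bins and 4 classes of bins, with exact 95% intervals and a separate vertical scale in each panel. The palindrome was in 1.43% of gained bins and 8.66% of bins occupied at both times, and 114 of the 901 latter bins lie at the start of chromosome 11.

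The position of the reads around the consensus is described next. Among the 1212 gained bins with a single match, 3 hpi reads per 20-bp step were highest 10 bp from the centre of the letters, at 190.3 per 100 bins, and averaged 144 within 100 bp and 17.5 beyond 300 bp. The 0 hpi reads of these bins averaged 14.7 and 7.98. In 303 bins at the minimum at both times, 0 hpi reads averaged 132 within 100 bp and 15.4 beyond 300 bp. The 0 hpi level of each class is set by how the classes were defined, so no difference in level is read from the profiles. The bins were also chosen for these reads, so a high level near a point within them and a fall beyond 300 bp are largely set by the rule. No other position in the same bins was profiled, so centring on the letters was not tested.

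**Figure D3:**
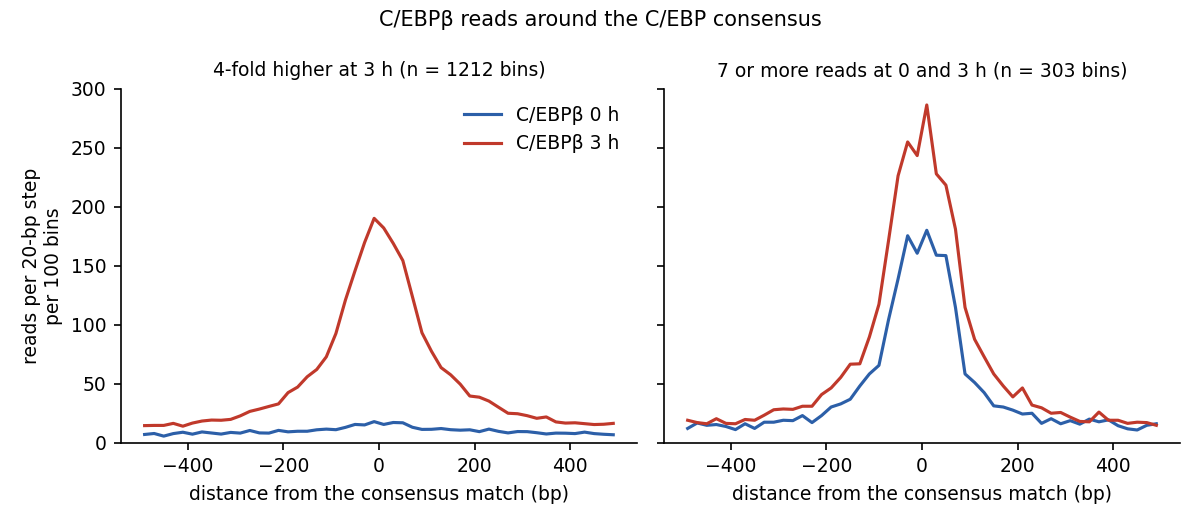
C/EBPβ reads by distance from the centre of the C/EBP consensus (bp), in 20-bp steps and per 100 bins, at 0 hpi (blue) and 3 hpi (red), for bins with exactly 1 match. In 1212 gained bins the 3 hpi reads peak over the letters at 190.3 while 0 hpi reads stay at or below 18, and in 303 bins occupied at both times both libraries peak there. The bins were chosen for these reads, and no other position in them was profiled.

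Gained bins lay near promoters less often than the other classes but more often than all genome bins. Of these, 251 (6.29%, 5.56% to 7.09%) were within 1 kb of the start of a protein-coding transcript (TSS), against 18.9% (16.4% to 21.6%) of bins at the minimum at both times, 24.4% (21.2% to 27.7%) of those at the minimum at 0 hpi alone and 2.36% of all bins. Merged where they touched or lay 1 bin apart, the 7538 bins formed 5457 sites nearest to 3216 genes, of which 2886 were 4-fold higher at 3 hpi. Among these 2886 sites 49.2% lay in introns, 46.7% between genes, 2.56% in UTRs and 1.07% in coding exons. For all 5457 sites the shares were 46.6%, 47.5%, 3.45% and 1.87% in that order. The median GC content was 45% in gained bins, 49.0% in bins at the minimum at both times and 52.5% in bins 4-fold higher at 0 hpi, against 42.0% in all bins.

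C/EBPα was found at most gained bins by 3 hpi, and at 30 min in a share near that of all bins compared. These libraries, thinned to the same depth, were not used by the rule. The minimum of 7 C/EBPα reads was reached in 119 of the 3991 gained bins at 0 hpi (2.98%, 2.48% to 3.56%), in 18.9% at 10 min, 59.2% at 30 min, 72.7% at 60 min and 90.5% (89.5% to 91.3%) at 3 hpi. Over all 7538 bins the shares were 25.8% at 10 min, 59.6% (58.5% to 60.7%) at 30 min, 67.4% at 60 min and 82.3% (81.4% to 83.2%) at 3 hpi. In bins less than 4-fold apart they were 35.5%, 63.4%, 65.1% and 77.3% in that order. The libraries of the first hour were sequenced on another instrument (HiSeq) and with longer reads. Mean C/EBPα reads per gained bin were 1.75 at 0 hpi, 3.93 at 10 min, 15.7 at 30 min, 17.2 at 60 min and 22.2 at 3 hpi. Later they fell to 15.4 at 12 hpi, 10.6 at 24 hpi and 8.48 at 48 hpi. From 12 to 48 hpi mean C/EBPβ reads in the same bins rose from 7.77 to 14.4, while C/EBPα fell. Over all 7538 bins C/EBPβ likewise rose from 8.49 to 15.6 and C/EBPα fell from 14.3 to 8.26, so this course was not particular to gained bins. The rise of C/EBPβ from 0 to 3 hpi in these bins is the rule that chose them. Whether any C/EBPβ reads came from binding of the antibody to the C/EBPα fusion was not tested.

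Across the 7538 bins the log2 ratio of C/EBPβ had a Pearson correlation of 0.61 (Spearman 0.60) with that of C/EBPα and of 0.22 (Spearman 0.21) with that of PU.1. These are descriptions over bins of unreplicated libraries that share cells and base composition. Among gained bins, 381 (9.55%) were below the C/EBPα minimum at 3 hpi, and they were weaker, with 353 holding at most 9 C/EBPβ reads. Of them 22.0% (18% to 26.6%) held the consensus, against 38.8% (37.2% to 40.4%) of the other 3610.

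Most bins occupied at both times had C/EBPα before induction. The C/EBPα minimum was reached at 0 hpi in 594 of the 901 (65.9%, 62.7% to 69.0%), with a mean of 11.4 reads against 1.75 in gained bins. PU.1 was at the minimum at 0 hpi in 43.0% (39.7% to 46.3%) of them, against 14.8% (13.7% to 15.9%) of gained bins. Over all 7538 bins the shares were 13.9% for C/EBPα and 21.6% for PU.1. Without the start of chromosome 11 they were 62.4% (58.9% to 65.8%) and 38.5% (35.1% to 42.0%) of the bins occupied at both times. A total of 121 bins were at the minimum in all 18 libraries. By definition they are all among the 901 bins (13.4% of them) and count in both the C/EBPα and the PU.1 share.

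**Figure D4:**
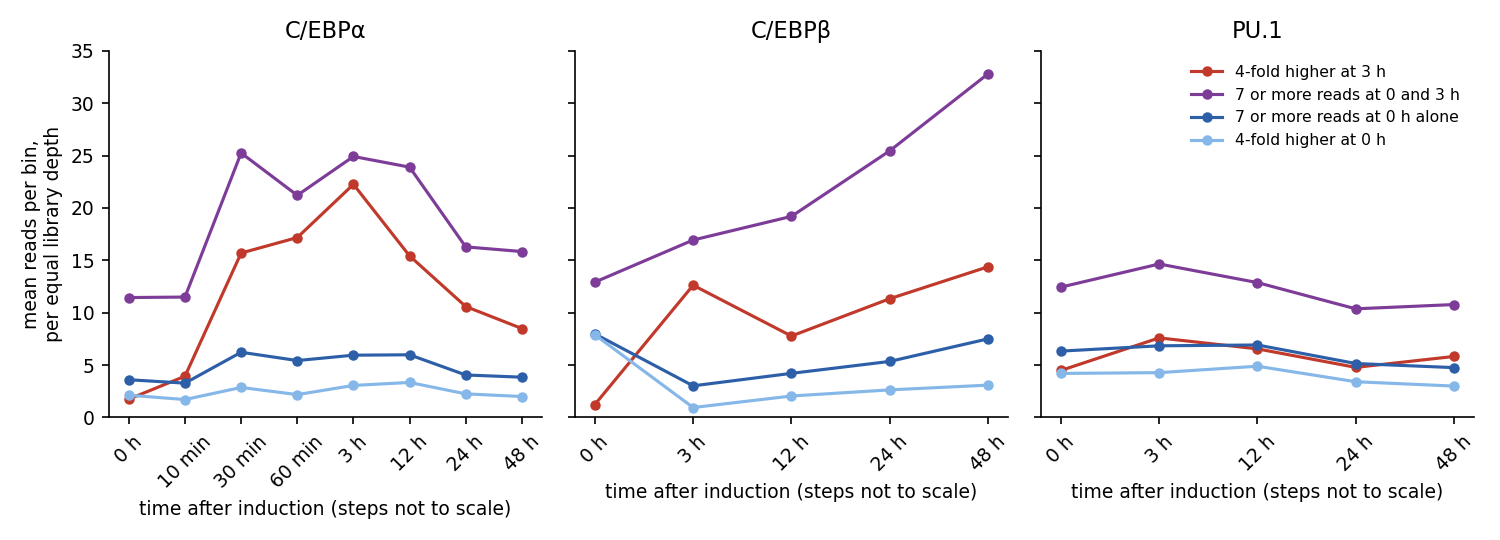
Mean reads per bin at equal library depth in each C/EBPα, C/EBPβ and PU.1 library, in order of time after induction (steps not to scale), for 4 classes of bins set by C/EBPβ at 0 and 3 hpi. In bins gained by C/EBPβ, C/EBPα rose from 1.75 at 0 hpi to 22.2 at 3 hpi and fell to 8.48 at 48 hpi. C/EBPβ there was 12.6 at 3 hpi, by which the bins were chosen, then 7.77 at 12 hpi and 14.4 at 48 hpi. From 12 to 48 hpi C/EBPβ also rose and C/EBPα fell over all bins compared.

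C/EBPβ was present at 48 hpi in about the same share of gained bins as of all bins compared. Of the 3991, 2273 (57.0%, 55.4% to 58.5%) were at the minimum at 48 hpi, with a mean of 14.4 reads over all of them. The share was 58.9% (57.8% to 60.0%) over all 7538 bins and 64.7% (63.0% to 66.3%) in bins less than 4-fold apart. Among gained bins it was 42.1% (39.8% to 44.4%) for bins of 7 to 9 reads at 3 hpi, 65.5% (63.1% to 67.8%) for 10 to 19 reads and 82.8% (79.2% to 86.0%) for 20 or more. Bins at the minimum at both 0 and 3 hpi were there at 48 hpi in 86.9% (84.5% to 89.0%) of cases. The 12 and 24 hpi libraries are shallower than the common depth (2824293 and 3040876 reads), so only their means, scaled to it, are compared, and these were 7.77 and 11.3 per gained bin.

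The 2273 gained bins that were at the minimum at 48 hpi and the 1718 that were not differed in their letters and in PU.1. The consensus was in 42.3% (40.2% to 44.3%) of the former and 30.6% (28.4% to 32.8%) of the latter, and the PU.1 letters in 6.16% (5.21% to 7.23%) and 1.98% (1.37% to 2.75%). PU.1 was at the minimum at 0 hpi in 19.1% (17.5% to 20.8%) and 8.96% (7.65% to 10.4%). Their 3 hpi means were 14.4 and 10.2 reads, so strength differed as well and its part in these differences was not tested.

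PU.1 occupied a minority of gained bins, as of all bins compared, and bins with PU.1 at both times held the consensus less often than those with it at neither. Of the gained bins, 557 (14.0%) had PU.1 at 0 and 3 hpi, 560 (14.0%) at 3 hpi alone, 32 at 0 hpi alone and 2842 (71.2%) at neither. PU.1 was thus at 14.8% of gained bins at 0 hpi and 28.0% at 3 hpi, beside 21.6% and 32.8% of all bins compared and 30.2% and 39.6% of those less than 4-fold apart. The C/EBP consensus was in 26.8% (23.1% to 30.6%), 35.9% (31.9% to 40.0%), 21.9% and 39.7% (37.9% to 41.6%) of these groups in that order, and the intervals of the group with PU.1 at 3 hpi alone and of that with neither overlap. C/EBPβ was at the minimum at 48 hpi in 74.5% (70.7% to 78.1%) of bins with PU.1 at both times, 70.0% (66.0% to 73.8%) of those with PU.1 at 3 hpi alone and 50.9% (49.0% to 52.7%) of those with neither. These groups also differed in C/EBPβ reads at 3 hpi, with means of 14.9, 14.8 and 11.7, and the part of that in the 48 hpi shares was not tested.

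The 10 gained sites with the most reads at 3 hpi lay near *Lrrc40*, *Ndel1*, *Myb*, *Lyz1*, *Nt5c2*, *Lrrk2*, *Slpi*, *Cd93*, *Chek2* and *N4bp2l2*. The highest, in an exon of *Lrrc40*, went from 12 to 72 reads (6-fold, 3.23 to 12.1), and the site 0.140 kb upstream of *Ndel1* from 12 to 71 (5.92-fold, 3.19 to 12.0). Both held 130 reads at 48 hpi. The other 8 had at most 6 reads at 0 hpi.

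The site 9.18 kb upstream of *Lyz1*, a lysozyme gene, had 1 read at 0 hpi and 68 at 3 hpi (68.0-fold, 11.8 to 2725). It held 54.6, 48.0 and 45 reads at 12, 24 and 48 hpi, and its C/EBPα reads were 0 at 0 hpi, 20 at 10 min and 64 at 3 hpi. Its PU.1 reads were 8 and 28 at 0 and 3 hpi. Reads of both antibodies were thus high at 3 hpi and at 48 hpi, in a bin without any of the C/EBP letters. The intronic site of *Nt5c2*, with 3 matches, went from 1 to 66 reads (66.0-fold, 11.4 to 2646) and reached 96 at 48 hpi.

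Other strong sites were transient. In an intron of *Myb*, which encodes a transcription factor of blood progenitors, C/EBPβ reads were 3 at 0 hpi, 68 at 3 hpi, 23.6 at 12 hpi, 20.6 at 24 hpi and 8 at 48 hpi, and the rise to 3 hpi was 22.7-fold (7.43 to 113). C/EBPα reads there were 1, 86 and 8 at 0, 3 and 48 hpi. The sites 121 kb from *Chek2* (6, 58 and 13 C/EBPβ reads at 0, 3 and 48 hpi) and near *N4bp2l2* (2, 58 and 8) showed the same rise and fall. Those near *Slpi*, an inhibitor of leukocyte proteases (4, 60 and 75), and *Cd93*, a myeloid surface receptor (2, 59 and 52), still held most of their 3 hpi reads at 48 hpi.

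The sites with the most reads before induction were chosen by their 0 hpi reads, so their ratios are a description from which no stability is read. At *Cdkl4* there were 58 reads at both times (ratio 1, 0.683 to 1.46), near *Ctr9* 46 and 59 (1.28, 0.858 to 1.93), and upstream of *Abhd11* 42 and 30 (0.714, 0.432 to 1.17). *Coq2* had 28 and 51 reads (1.82, 1.13 to 3.00). C/EBPα reads at 0 hpi in the 10 such sites ranged from 10 to 52. *Cdkl4*, *Ctr9*, *Txnrd3* and *Btbd19* held the palindrome and had 68 to 142 C/EBPβ reads at 48 hpi. All sites of the set except *Hist2h4* had more reads at 48 than at 3 hpi, with or without the palindrome, among them *Abhd11* (30 and 118) and *Ldlrad3* (24 and 82). A site within *Hist2h4*, a histone gene, held 34, 20 and 11 reads at 0, 3 and 48 hpi and none of the C/EBP letters.

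Few bins were 4-fold higher at 0 hpi, and most were so by small counts. The libraries compared also chose these bins, so no loss of binding is read from them. Sites called lost in the lists below are sites of this class and no more. Of the 227 bins 4-fold higher at 0 hpi, 209 had 7 to 9 reads at 0 hpi and 18 had 10 or more, and 66 had 0 and 115 had 1 read at 3 hpi. Several of the 18 lie in the *Sfpi1* window described below. The consensus was in 9.69% (6.17% to 14.3%) of them, near the 9.28% of all bins, and none held the palindrome (0 of 227, with an exact upper bound of 1.61%). The E-box CAGGTG was in 22.5% (17.2% to 28.5%) against 12.0% of all bins, in bins of higher GC content. C/EBPβ was at the minimum at 48 hpi in 9.69% of them and C/EBPα at 0 hpi in 6.61%, beside 13.9% of all bins compared and 2.98% of gained bins. These bins thus held the consensus about as often as all genome bins did.

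The sites higher at 0 hpi with the most reads lay near *Mnt*, *Ppp1r14b*, *Rnls* (290 kb away), *Gm15319* and *Ggnbp1*. Single bins of the *Sfpi1* window described below held more 0 hpi reads than these sites, such as 20 and 5 or 19 and 1 at 0 and 3 hpi. They are not listed because they were merged into a site that takes the values of a bin with 29 and 16 reads. The site near *Ggnbp1* held 10 reads at 0 hpi, as did those near *Zfp36l2* and *Fam160b1*. At *Mnt*, which encodes a partner of MAX that opposes MYC, there were 15 reads at 0 hpi and 2 at 3 hpi (7.5-fold lower at 3 hpi, 1.74 to 67.6), but 28.8 and 29 at 24 and 48 hpi. With bins moved by 100 bp its log2 ratio of 3 over 0 hpi went from -2.42 to -1, and it was no longer 4-fold lower. C/EBPα reads at that bin were 16 and 25 at 0 and 3 hpi.

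The surroundings of *Sfpi1*, the gene of PU.1, held more of these bins than those of any other gene. In a window of 3.702 kb that the study lists (mm9), 15 of 19 bins were compared and 9 of these were 4-fold higher at 0 hpi. They lay on both sides of the first annotated start and before the later starts of the gene, and they were interrupted by other bins. No other gene had more than 3 such bins nearest to it. The window held 236 reads at 0 hpi and 79 at 3 hpi. Its 2 bins at the minimum in C/EBPα, C/EBPβ and PU.1 at both times, called shared here, held 45 and 35 reads. The second of them lies 0.753 kb past the first annotated start of the gene. The limits of the upstream regulatory element that the paper shows for this gene were not determined here. Another 2 bins of the window, with 12 and 8 and with 14 and 9 C/EBPβ reads, were at the minimum in C/EBPβ and PU.1 at both times and in C/EBPα at 3 hpi but not at 0 hpi.

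The 17 bins of the window other than the 2 shared bins had 191 reads at 0 hpi, with a median of 13 per bin. At 3 hpi they had 44, with a median of 2. The pair named last above is among the 17. In those 17 bins each of the remaining libraries held 10 to 83 reads, and the C/EBPα library at 0 hpi held 20. The raised level was seen in the C/EBPβ library at 0 hpi, and its source was not tested. Without the window, 218 bins were 4-fold higher at 0 hpi, and bins at the minimum at 0 hpi numbered 1592.

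**Figure D5:**
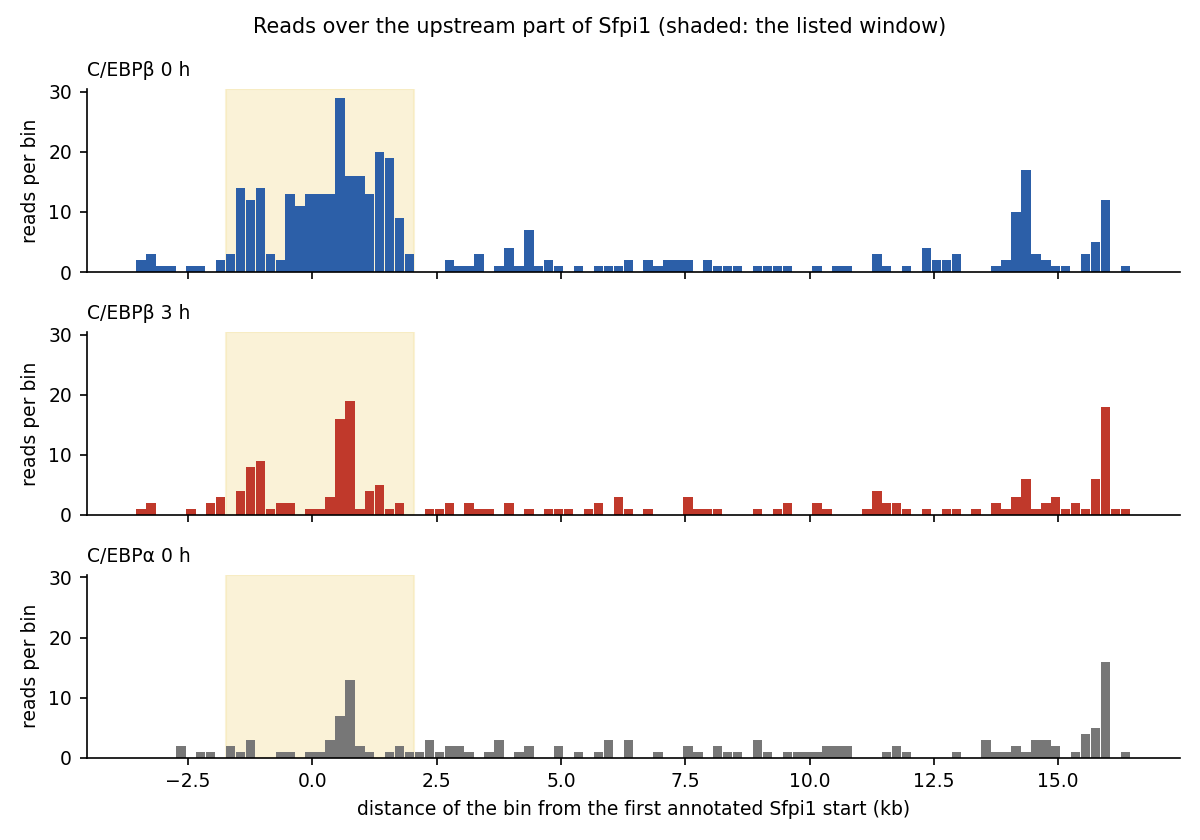
Reads per 200-bp bin around the first annotated start of *Sfpi1* (distance in kb) for C/EBPβ at 0 hpi, C/EBPβ at 3 hpi and C/EBPα at 0 hpi, with the listed window shaded. In the window, 2 shared bins reach the minimum in C/EBPα, C/EBPβ and PU.1 at 0 and 3 hpi. Over the other 17 window bins, C/EBPβ has a median of 13 at 0 hpi and 2 at 3 hpi, and C/EBPα at 0 hpi a median of 1. Of these 17, 2 also reach the minimum in C/EBPα at 3 hpi and in PU.1.

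A second stretch, the first 100 kb of assembled chromosome 11 beside *Sfi1*, held 212 of the bins compared. They averaged 9.22 reads at 0 hpi and 9.25 at 3 hpi, the averages of all 18 libraries lay between 7.77 and 12.7, and 4.72% held the consensus. Without them, 30.3% of the bins at the minimum at 0 hpi held the consensus, against 27.5% with them.

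Genes were grouped in lists by function, and the 5457 sites were assigned to the nearest gene. Over all sites 52.9% were 4-fold higher at 3 hpi, with a median log2 ratio of 1.74. These shares are the background for the lists below, whose counts are a description.

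Inflammatory mediators and their feedback regulators had the largest shares of gained sites among the 12 lists as counted (70% and 76%). The lists are short, and sites of the same gene count separately, such as the 5 gained sites each of *Il12b* and *Nfkbiz*. No difference between lists, or from the background, is read from these shares. For cytokines and chemokines, 21 of 30 sites near 12 genes were 4-fold higher at 3 hpi and 0 at 0 hpi, with a median log2 ratio of 2.13. The site 64.8 kb upstream of *Il6*, which encodes interleukin 6, held 3 C/EBPβ reads at 0 hpi and 43 at 3 hpi (14.3-fold, 4.59 to 72.2), then 68 at 48 hpi. PU.1 was there throughout, with 49 reads at 0 hpi, and the bin held the C/EBP-ATF composite. Near *Il12b*, a subunit of interleukin 12, C/EBPβ reads were 4 and 21, and at *Il1b* and *Ptgs2*, the gene of cyclooxygenase 2, they were 6 and 20, and 9 and 27. The last pair fell short of 4-fold and rose further to 67 and 79 at 48 hpi.

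Of 25 sites near NF-κB and cytokine feedback genes, 19 were 4-fold higher at 3 hpi and 2 at 0 hpi. *Nfkbiz*, an atypical IκB protein of inflammatory gene control, had a site that went from 6 to 47 reads (7.83-fold, 3.34 to 22.4). *Stat3* went from 6 to 28, *Relb* from 1 to 19 (19-fold, 3.02 to 789) and *Tnfaip3*, a brake on NF-κB, from 3 to 15. The 2 sites higher at 0 hpi lay near *Pim1* (7 reads and 1) and *Nfkb2* (7 reads and 0, at least 2.33-fold lower). Both bins had at most 3 reads of C/EBPα at 0 and 3 hpi and of C/EBPβ at 48 hpi.

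For AP-1 and ATF genes, whose products can pair with or bind beside C/EBP proteins, 11 of 18 sites were gained and 1 lost. *Batf* went from 2 to 15 reads at a bin with the C/EBP-ATF composite. *Jun* had a site with 0 and 11 reads (at least 3.67-fold higher at 3 hpi) and another with 7 and 0 (at least 2.33-fold lower), so the counts placed both in the 4-fold classes while their bounds were under 4-fold. *Fosl2* went from 7 to 17 and *Atf3* from 4 to 11, both with intervals of the ratio that included 1.

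Macrophage receptors and effector genes had gained sites at about the background share. For receptors and adhesion genes, 15 of 29 sites near 16 genes were gained and 0 lost. *Tlr2*, a receptor for bacterial lipopeptides, went from 2 to 45 reads (22.5-fold, 5.88 to 191) and reached 91 at 48 hpi. *C3ar1*, a receptor for complement fragment C3a, went from 0 to 20 (at least 6.67-fold) and reached 49. *Cd36*, a scavenger receptor, went from 0 to 25 (at least 8.33-fold) but held 3 at 48 hpi. For effector and granule genes, 15 of 28 sites were gained, among them *Sla* (3 to 31 reads) and *Ncf1*, a subunit of the phagocyte oxidase (6 to 29). *Ehd1* went from 12 to 40 at a bin at the minimum in all 18 libraries.

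The gained sites of the lists were followed to 48 hpi. At 48 hpi the C/EBPβ minimum was reached at 14 of the 15 gained effector sites and 12 of the 15 gained receptor sites, against 1689 of all 2886 gained sites (58.5%). For the other lists it was reached at 13 of 18 sites near PU.1 and macrophage regulators, 8 of 11 near AP-1 and ATF genes, 15 of 21 near inflammatory cytokines and chemokines, 10 of 19 near NF-κB and cytokine feedback genes and 7 of 9 near ATF4 and stress-response genes. It was reached at 5 of 12 near B-lineage transcription factors, 4 of 6 near pre-B cell receptor and recombination genes, 5 of 8 near circadian and cAMP-response genes, 3 of 5 near cell cycle genes and 1 of 2 near C/EBP family genes. The exact intervals are wide, such as 68.1% to 99.8% for the effector sites, 51.9% to 95.7% for the receptor sites and 15.2% to 72.3% for the B-lineage sites, and no difference between lists is read from them.

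For B-lineage transcription factors, 12 of 30 sites were gained and 2 lost. *Bach2*, a repressor that keeps B cells from a myeloid course, had an intronic site with 3, 28, 11.8, 0 and 1 C/EBPβ reads at 0, 3, 12, 24 and 48 hpi, a rise of 9.33-fold (2.88 to 48.0) that did not last. *Lef1* went from 2 to 13 and back to 4. *Id2*, an inhibitor of E proteins, rose from 1 to 26 at a site 421 kb away and on to 75, so members of the list took opposite courses after 3 hpi. The sites counted as lost were in a coding exon of *Pax5*, the B-cell commitment factor (7 reads and 1), and upstream of *Pou2af1* (8 reads and 0, at least 2.67-fold lower, a bound under 4-fold). The interval of the *Pax5* ratio included 1, and that bin had at most 3 C/EBPα reads at any time.

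Of 17 sites near genes of the pre-B cell receptor and recombination, 6 were gained. *Lyn*, a kinase also used in myeloid cells, went from 0 to 19 reads and to 38 at 48 hpi. *Igll1*, the surrogate light chain, went from 0 to 17 (at least 5.67-fold) and held 4 at 48 hpi, and *Il7r* from 1 to 14 (14.0-fold, 2.13 to 592) and held 2. The *Igll1* and *Il7r* bins had 45 and 21 C/EBPα reads at 3 hpi.

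In the C/EBP family, 2 of 7 sites were gained. An intergenic bin 65.3 kb from *Cebpb* itself went from 4 to 21 reads (5.25-fold, 1.77 to 21) and on to 25.1, 63.1 and 92 at 12, 24 and 48 hpi. Its C/EBPα reads were 7, 42 and 72 at 0 hpi, 60 min and 3 hpi. A separate bin 71.3 kb from the gene held 14 and 17 at 0 and 3 hpi and 100 at 48 hpi. *Ddit3*, which encodes the partner protein CHOP, held 6 and 13 reads at a bin with the C/EBP-CRE hybrid.

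Among PU.1 and macrophage regulators, 18 of 46 sites were gained and 2 lost. Besides *Myb*, the highest at 3 hpi was at *Trib1*, which encodes a protein that targets C/EBPα for degradation, with 3 and 32 reads (10.7-fold, 3.34 to 54.4). An intergenic bin 284 kb from *Klf4* (11 and 23 reads) and a bin upstream of *Nfe2* (21 and 23) were at the minimum at 0 hpi already. The *Nfe2* bin was at the minimum in all 18 libraries. One of the lost sites was in *Sfpi1* (7 reads and 1, a ratio whose interval included 1), outside the window of 3.702 kb. The other was 29.0 kb from *Irf8* (8 reads and 1).

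In the ATF4 and stress-response list 9 of 20 sites were gained, led by *Gadd45a* (0 and 27 reads, at least 9-fold, and 8 at 48 hpi). The promoter of *Chac1*, with both hybrid forms, held 12 and 13 reads, then 50 at 48 hpi. Of 16 sites near circadian and cAMP-response genes, 8 were gained, among them *Pde4b* (0 and 27) and *Nr4a3* (1 and 11). Of 16 sites near cell cycle genes, 5 were gained, led by *Cdkn1a* (2 and 17), and 3 lost, near *Ccng2* (8 and 2), *Btg2* (7 and 1) and *Myc* (7 and 1). The lost sites of this list had ratios whose intervals included 1.

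The study lists single-locus windows in mm9, and 34 of them were read in the same way. A compared bin was present in 28. Several windows overlap one another. The bin shown for a window is the one with the most 3 hpi reads, which favours a rise, so these bins are given as values and not counted. The pair of windows over *Sfpi1*, one within the other, fell from 236 to 79 and from 400 to 219 reads in all, with 9 and 10 bins 4-fold higher at 0 hpi. *Mmp12*, a macrophage elastase, went from 1 to 12 reads (12.0-fold, 1.78 to 513), *Rassf3* from 1 to 15, and *Tlr4* from 1 to 10. The top bin at *Gadd45b* had 7 reads and 2.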

How the data were processed

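The deposited BED files hold 1 aligned read per line, with no header. Per the study's methods, reads were placed on mm9 by ELAND or by Bowtie with no mismatch allowed, followed by removal by the authors of identical reads and of reads that did not align uniquely. The submitters' processing notes name Bowtie, HOMER and mm9, and versions are not given in the sources used here.

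Each library has 1 sample per factor and time. On chromosomes 1 to 19, 1 read was kept per position and strand, 5′ ends were moved 75 bp inward, libraries were thinned at random to 4169425 reads and reads were counted in 200-bp bins. The C/EBPβ libraries at 12 and 24 hpi (2824293 and 3040876 reads) were scaled instead. Bins with 7 or more reads in either library were compared, and 4-fold was the limit for higher or lower. Letters were sought within bins of the mm9 genome, and transcript starts and locations came from GENCODE vM1. Bins that touched or lay 1 bin apart formed a site, which took the values of its bin with the most reads in both libraries together and the protein-coding gene with the nearest TSS. A ratio against 0 reads was computed against a floor of 3 reads per bin.

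The sites named are the 10 with the most reads at 3 hpi among those 4-fold higher, the 10 with the most at 0 hpi and the 10 with the most at 0 hpi among those 4-fold lower at 3 hpi (both leaving out bins at the minimum in all 18 libraries), up to 4 genes per list by reads at 3 hpi with any 4-fold lower, and the study's windows. The bins and lists were chosen with earlier results of these data known. Of the listed genes, Cebpd and Gfi1 (not protein-coding in this annotation), Cybb and Btk (on the X chromosome) and Syk (no entry by that name) were not used. Counting was tested on simulated data. Python 3.11.15, NumPy 2.4.6, pandas 2.3.3 and SciPy 1.17.1 were used. Alternatives changed the random seed, the scaling, the read minimum, the bin position, the shift, the fold and the unit.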

Additional observations from a re-analysis of the deposited data

How the results depend on the processing

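The alternatives were run for the counts of bins, the median ratio, the consensus shares of gained and 0 hpi bins, the TSS share, the C/EBPα and PU.1 shares and the named sites. The palindrome and other letters, the 48 hpi and PU.1 splits, the gene lists, the profiles and the other factors were not rerun, apart from the palindrome without the start of chromosome 11. With a read minimum of 10, 3554 bins were compared, 2164 were 4-fold higher at 3 hpi, 18 were 4-fold higher at 0 hpi and 545 were at the minimum at 0 hpi. Under that minimum the consensus was in 42.1% of gained bins and 37.2% of 0 hpi bins, 23.7% of 0 hpi bins were within 1 kb of a TSS, and C/EBPα at 3 hpi and PU.1 at 0 hpi were at the minimum in 96.3% and 12.4% of gained bins. With 2-fold as the limit, 512 bins were higher at 0 hpi, and the C/EBPα and PU.1 shares were 88.7% and 17.8%. With all reads scaled to totals, the consensus share of gained bins was 39.2% and the C/EBPα share 95.8%, and with another seed the C/EBPα share was 89.3%. Merged into sites, the consensus shares were 43.7% for gained and 32.4% for 0 hpi sites. Counting a bin or either neighbour gave 94.4% for C/EBPα and 21.4% for PU.1. Leaving out the start of chromosome 11, a choice made after seeing the data like that of leaving out the Sfpi1 window, gave 30.3% for the consensus in 0 hpi bins. With 0 reads counted as the floor of 3, a choice made after seeing the data, the C/EBPα and PU.1 shares were 91.8% and 16.7%. Of 325 values for the 65 named sites 4-fold apart 0 changed direction and 20 moved. Of 185 values for the other 37 named sites 5 changed direction, at 4 sites. With bins moved by 100 bp the log2 ratio was -0.42 at *Ppp1r14b*, -0.74 at *Pim1*, -1 at *Mnt* and *Myc*, 1.81 at the gained site of *Jun*, 2.81 at *C3ar1* and *Igll1*, and 2.91 at *Lyn*. With another seed it was -1.17 at *Irf8*, and with all reads scaled to totals it was -1.70 at the site of *Jun* higher at 0 hpi. The count of bins higher at 0 hpi thus went from 227 to 18 with the read minimum of 10 and to 512 with the 2-fold limit.

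No paired analysis was possible because each factor and time has 1 library and the labels carry no replicate numbers. Depth limits the single bins: a bin of 7 reads against 1 has an interval of the ratio that includes 1.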

Other observations

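Several genes had many separate C/EBPβ sites. *Foxp1*, which encodes a forkhead transcription factor, was nearest to 15 sites, of which 9 were 4-fold higher at 3 hpi and 1 at 0 hpi. *Sgms1*, a sphingomyelin synthase gene, had 12 sites with 8 gained, and *Atp10a* had 9 with 7 gained. All 7 sites of *Lpp* and all 7 of *Nrg1* were gained. These genes were picked by their number of gained sites after the values were seen.

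Gained bins without C/EBPα in any library from 0 to 3 hpi numbered 285, and 263 of them held at most 9 C/EBPβ reads at 3 hpi. The consensus was in 20.4% (15.8% to 25.5%) of these, and 27.0% (21.9% to 32.6%) were at the C/EBPβ minimum at 48 hpi.

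Median 3 hpi reads by the reads before induction are shaped by the read minimum. The medians were 9, 9, 9 and 10 for compared bins with 0, 1, 2 to 3 and 4 to 6 reads at 0 hpi, which had to reach 7 at 3 hpi. The 1062 compared bins with 7 to 9 reads at 0 hpi had a median of 5 at 3 hpi, the 445 bins with 10 to 19 had a median of 12, and the 100 bins with 20 to 147 had a median of 27.5.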
